A study of Mus musculus with 12 samples.

Results

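The step from LSK to GMP was compared in mice that had lost Lamtor2, on 3 LSK arrays and 3 GMP arrays of knockout (KO) mice out of 12 arrays in all. LSK, the Lin- fraction positive for Sca1 and c-Kit, contains blood stem cells and multipotent progenitors. GMP, Lin- Sca1- cells with c-Kit, CD34 and FcγR on their surface, give rise to granulocytes and macrophages. All probe sets with exactly 1 gene symbol were used, 21640 of 34760, which gave 19937 genes. The KO mice were C57BL/6J mice with the Mx-Cre transgene and floxed Lamtor2 alleles (Mx-Cre Lamtor2 f/f). The 6 remaining arrays, 3 of LSK and 3 of GMP, came from C57BL/6J mice that carried Mx-Cre and intact Lamtor2 (WT). The WT arrays served to show where the KO step differed. They also entered the shared fit, and so the spread estimate behind the p-values of the KO step. All mice, the WT mice included, carried Mx-Cre and had been injected intraperitoneally with pIpC, and cells were sorted at day 14. Mx-Cre is driven by an interferon-inducible promoter and acts in many cell types, so the deletion was not limited to LSK or GMP. The age and sex of the mice, any pooling, and whether the LSK and GMP samples of a replicate number came from the same mouse are not stated, so p-values measure only the spread between these samples.

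Lamtor2 encodes a subunit of Ragulator, a protein complex of the lysosomal and late endosomal surface. Ragulator holds the Rag GTPases there, which recruit mTORC1 when amino acids are plentiful, and it also brings MEK together with ERK. Folliculin, with its partners Fnip1 and Fnip2, acts on the same Rag GTPases, and the MiT/TFE transcription factors (Tfeb, Tfe3, Mitf and Tfec) switch on lysosomal genes when they are released from the lysosomal surface. On the way from LSK to GMP, cells lose stem cell and lymphoid transcripts, gain the proteases of the neutrophil primary granule, and normally build up the machinery of protein folding, ribosome production and cell division.

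Values are RMA values on the log2 scale. A KO step is the mean of the 3 LSK KO arrays minus the mean of the 3 GMP KO arrays, so it is positive for a gene higher in LSK. A WT step is the same for the WT arrays, and the difference of the steps is the KO step minus the WT step. A gene was called where the adjusted p of limma was below 0.05. The standard error (SE) of a WT step equals that of the gene's KO step, since both rest on 3 arrays against 3 in the same fit. The 3 LSK KO arrays read 5.11, 5.40 and 5.77 for Lamtor2, and the 3 GMP KO arrays read 5.53, 5.12 and 4.95. The ranges overlapped, and the KO step of Lamtor2 was 0.23 (SE 0.17, adjusted p = 0.356; exact two-sided permutation p = 0.5, where 0.1 is the smallest that 3 arrays against 3 can give). The WT means of Lamtor2 were 10.39 in LSK and 10.74 in GMP. Readings from 4.95 to 5.77 are therefore those of a deleted gene at the probe set of Lamtor2. Other probe sets can read lower, so for other genes this range is only a guide. Where 1 of the KO means did not exceed 5.77, the KO step was treated as a lower bound, marked "at least". Where both KO means did not exceed 5.77, no step is given. WT steps and differences were not marked in this way.

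GMP KO replicate 1 stood apart. Its mean correlation with the other arrays of its group was 0.9621, against 0.9725 and 0.9747 for GMP KO replicates 2 and 3, and limma's array weights gave it 0.19, against 0.68 to 2.15 for the other 11 arrays. The GMP KO arrays deviated from their group mean by 0.218 (root mean square, log2), against 0.139 in LSK KO, 0.125 in LSK WT and 0.116 in GMP WT. Many of the counts below are also given without GMP KO replicate 1. The Fcγ receptor genes of the GMP gate were higher in GMP. Fcgr3, the gene of a low-affinity Fcγ receptor, read 8.49, 8.50 and 7.80 in LSK KO and 10.37, 10.72 and 10.43 in GMP KO. The arrays did not overlap, and Fcgr3 was 2.24 lower in LSK (KO step -2.24, SE 0.23, adjusted p = 3.75e-05), against a WT step of -4.20 (difference 1.96, SE 0.32, adjusted p = 0.00387). Fcgr2b, the inhibitory Fcγ receptor, had a KO step of -1.34 (SE 0.14, adjusted p = 3.86e-05). Cd34, a marker of the GMP gate, was higher in KO LSK by 1.12 (SE 0.20, adjusted p = 0.00254) and Kit, positive in both gates, by 0.55 (SE 0.14, adjusted p = 0.0164), the latter with an adjusted p of up to 0.0753 without LSK KO replicate 1 or LSK KO replicate 3. Sca1 (Ly6a) was not analysed here. Of 7 lineage markers of the gate, only Cd4 was called, at -1.65 (adjusted p = 0.0163, and up to 0.0685 without LSK KO replicate 1 or GMP KO replicate 3), and its arrays overlapped.

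In KO, 3160 of 19937 genes were called between LSK and GMP. LSK was higher for 2006 (10.1% of genes tested) and GMP was higher for 1154 (5.79%). In WT the counts were 2047 (10.3%) and 1858 (9.32%). The counts of every gene list below are to be read against these shares, and small counts near them say little about a list. The KO arrays of LSK and GMP did not overlap for 31.5% of genes tested, and for 3068 of the 3160 called. At least 2-fold steps numbered 497 in KO (259 higher in LSK, 238 higher in GMP) and 846 in WT (540 and 306). Of the KO calls, 1445 were called in the same direction in WT, which is 45.7% of the KO calls and 37% of the WT calls, and the KO step was the smaller in 1009 of them. The 1858 genes that were higher in GMP in WT had a median of -0.56 in WT and -0.12 in KO, and 468 were called the same way in KO. The 2047 genes higher in LSK in WT had medians of 0.68 and 0.39, and 977 were called the same way in KO. Both sets were picked by their WT calls, which lengthens their WT medians, so their KO medians would be shorter even with equal steps.

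The difference of the steps was itself called for 1591 genes, 1064 positive (5.34%) and 527 negative (2.64%). A positive difference means that the gene stood higher in LSK relative to GMP in KO than in WT. Of the 1591, 832 were called in WT alone, 362 in KO alone, 181 in both with the smaller step in KO, 9 in both with the larger step in KO, 108 in both with opposite direction, and 99 in neither. The share of positive calls in the difference depended on the scaling. It was 66.9% as deposited, 54.0% after repeated quantile normalisation (586 positive, 499 negative) and 80.8% with arrays centred on their gene median (1577 and 376). The share of KO calls higher in LSK was 63.5% as deposited, 55.1% and 60.5% under the same scalings, and the WT share of 52.4% became 34.3% with centred arrays. The KO count rested on its arrays: it was 1667 without LSK KO replicate 3 and 1327 with the 6 KO arrays fitted alone. The WT count was 5400 with the 6 WT arrays fitted alone. The main fit shares 1 spread estimate over groups of unequal spread, so its KO and WT counts are not an even comparison. The count of the difference was 915 without LSK KO replicate 3. It was 1056 and 915 without replicates 1 and 2 of LSK WT, and 800 and 1012 without replicates 2 and 3 of GMP WT.

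**Figure D1:**
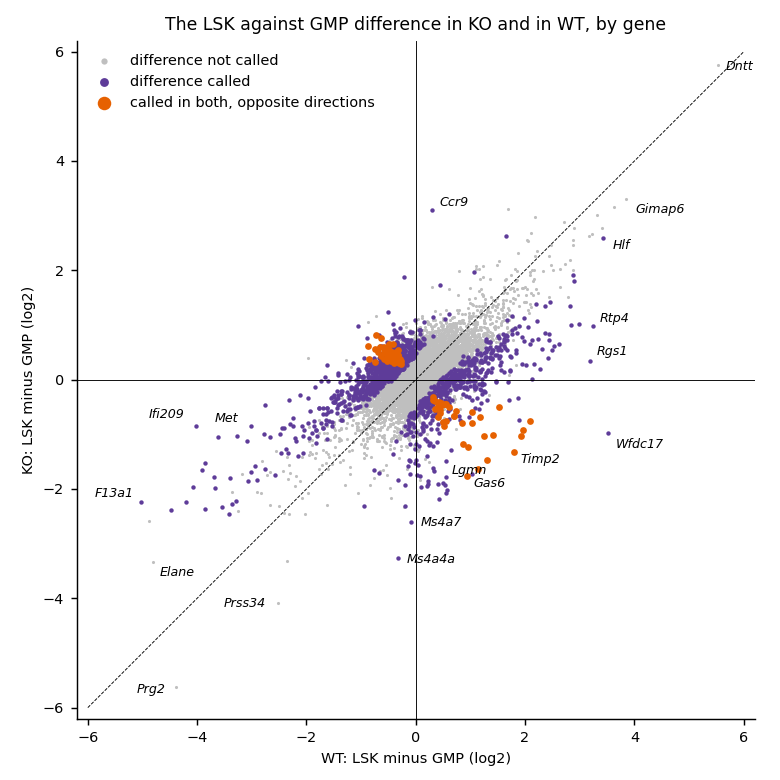
Each point is a gene, with the WT step on the x axis and the KO step on the y axis (LSK minus GMP, log2, 3 arrays a group). Purple points are the 1591 genes whose difference of the steps was called, orange points the 108 called in opposite directions, and the dashed line marks equal steps. Dntt and Prg2 have long steps in both genotypes, Ccr9 (3.11 in KO, 0.30 in WT) and Ms4a4a lie near the vertical axis, and F13a1 and Wfdc17 have a WT step longer than their KO step.

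The stem cell and multipotent progenitor transcripts separated LSK from GMP in KO, with shorter steps than in WT. Of 42 measured genes of that list, 32 were called higher in LSK in KO and 0 in GMP (33 and 0 without GMP KO replicate 1), against 10.1% of all genes, and 40 were called higher in LSK in WT. The median step was 0.82 in KO and 1.37 in WT, where that of all genes was -0.05 and -0.03. The KO step was the smaller, with the same sign, for 38 of the 42, and the difference was called for 10, all negative. In sorted populations measured in bulk, fewer cells of a type and less RNA per cell cannot be told apart. The mean of the list lay between 7.98 and 8.12 in LSK KO, 6.92 and 7.13 in GMP KO, 8.46 and 8.53 in LSK WT, and 6.89 and 7.08 in GMP WT. Hlf, a transcription factor of stem cells, read 10.19, 10.34 and 10.43 in LSK KO and 7.72, 7.86 and 7.59 in GMP KO. Its arrays did not overlap, and the KO step of 2.59 (SE 0.13, adjusted p = 2.39e-07) was shorter than the WT step of 3.43 (difference -0.83, SE 0.19, adjusted p = 0.0162). Mecom, the stem cell factor Evi1, had a KO step of at least 2.67 (SE 0.22, adjusted p = 8.46e-06), while the gene's other probe set gave 0.72. Meis1, a homeobox cofactor of Hox proteins, was higher in KO LSK by 2.27 (SE 0.21, adjusted p = 2.03e-05). The adhesion receptors Adgrg1 and Adgrl4 were each higher by 1.65. For those, Mecom and Meis1 the difference of the steps was not called (adjusted p from 0.323 to 0.867). Emcn, the sialomucin endomucin, read 4.82, 5.07 and 5.68 in LSK KO and 4.40, 3.96 and 4.20 in GMP KO, all in or below the range of a deleted gene, against a WT LSK mean of 6.91 and a WT step of 2.84 (difference -1.84, SE 0.30, adjusted p = 0.00383). Ndn, an imprinted growth regulator, had a WT step of 2.12 and both KO means at or below 5.77 (difference -1.40, adjusted p = 0.0023).

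Among genes of lymphoid priming was the longest KO step of all genes tested, that of Dntt. Dntt, the DNA polymerase that adds bases at joints of antigen receptor genes, read 9.72, 11.12 and 10.74 in LSK KO and 4.61, 5.05 and 4.67 in GMP KO. The arrays were far apart, with a KO step of at least 5.76 (SE 0.28, adjusted p = 2.08e-07) and a WT step of 5.53. Flt3, a receptor of multipotent and lymphoid progenitors, read 10.41, 10.82 and 10.74 in LSK KO and 8.92, 8.97 and 8.62 in GMP KO. The groups did not overlap, the KO step was 1.81 (SE 0.14, adjusted p = 4.72e-06), and the WT step of 2.89 was longer (difference -1.08, SE 0.19, adjusted p = 0.00579). The GMP mean of Flt3 was 7.58 in WT. Satb1, a chromatin organiser, and Bcl11a, a transcription factor of lymphoid precursors, were higher in KO LSK by 1.13 (SE 0.14) and 1.35 (SE 0.15). Ccr9, the receptor that guides progenitors to the thymus, read 8.08, 9.50 and 9.63 in LSK KO and 5.78, 6.36 and 5.75 in GMP KO. All LSK KO arrays lay above all GMP KO arrays, with a KO step of 3.11 (SE 0.32, adjusted p = 4.65e-05). The WT means of Ccr9 were 5.19 in LSK and 4.89 in GMP, a WT step of 0.30, and the difference was 2.81 (SE 0.46, adjusted p = 0.00389). Blnk, a B cell adaptor, went the other way, with a KO step of -1.62 (SE 0.23, adjusted p = 0.000405) and a WT step of 0.31 (difference -1.93, adjusted p = 0.00406). Over the 21 genes of the list 6 were called higher in LSK in KO and 3 in GMP, with a median of 0.26 (8 and 3, with a median of 0.08, without GMP KO replicate 1). Il7r, given further below, was also among the 3 higher in GMP. The difference was called positive for 1 member, Ccr9, and negative for 5.

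The Gimap genes, GTPases of lymphocyte survival that lie side by side in the genome, were higher in LSK for 5 of 8 in KO and 8 of 8 in WT, with medians of 1.06 and 1.86. Gimap6 read 8.85, 9.43 and 9.39 in LSK KO and 5.58, 6.43 and 5.74 in GMP KO. Without overlap, its KO step was 3.31 (SE 0.21, adjusted p = 2.04e-06). Gimap9 and Gimap1 had KO steps of 1.85 and 1.34. Gimap5 was also called, with both KO means at or below 5.77. Gimap8 passed at 0.78 (adjusted p = 0.0331), with an adjusted p of up to 0.11 (a KO step of 0.51) without LSK KO replicate 2, and above 0.05 without LSK KO replicate 3, GMP KO replicate 1 or GMP KO replicate 2. Gimap3, Gimap4 and Gimap7 were not called (adjusted p = 0.108, 0.0546 and 0.0843), and their GMP KO means were all below 5.77. The difference was called for Gimap1 (-1.03, adjusted p = 0.0148) and Gimap7 (-1.91, adjusted p = 0.00476). Genes of MHC class II were higher in KO LSK: H2-Aa by 2.69 (SE 0.22), H2-Ab1 by 1.60 (SE 0.22) and the invariant chain Cd74 by 1.59 (SE 0.23). Of 20 genes of MHC class II and of dendritic cells, 6 were called higher in LSK and 2 in GMP. Cd83, a surface protein of activated antigen-presenting cells, was among the latter, with a KO step of -1.47 (SE 0.18, adjusted p = 0.000172) against 0.00 in WT (difference -1.47, adjusted p = 0.00532). Of 17 genes of the B lineage 1 was called in each direction (Cd72, with a KO step of 1.88, and Cd22, higher in GMP by at least 0.61), and of 18 T and NK cell genes 2 in each direction. Without GMP KO replicate 1 the B lineage counts were 2 higher in LSK and 1 in GMP. Of the B lineage genes 10 were at or below 5.77 in LSK KO and 9 in GMP KO, and of the T and NK cell genes 12 in each.

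Some transcripts of the erythroid and megakaryocytic branches were higher in LSK, and most were not called. Of 22 erythroid genes 7 were called higher in LSK in KO, 0 in GMP and 15 in neither (6, 0 and 16 in WT), with a median KO step of 0.16 (0.01 without LSK KO replicate 1), and 6 were called without GMP KO replicate 1. Car2, a carbonic anhydrase of red cell precursors, read 9.71, 9.77 and 10.03 in LSK KO and 6.78, 6.63 and 6.64 in GMP KO. The KO arrays did not overlap, with a KO step of 3.15 (SE 0.15, adjusted p = 2.08e-07) and a WT step of 3.63. Car1, its relative, had a KO step of 3.13 (SE 0.50, adjusted p = 0.00109), and Mfsd2b, the lipid exporter of red cells and platelets, 2.08 (SE 0.21). Of 19 megakaryocyte and platelet genes 7 were called higher in LSK in KO and 1 in GMP, and 12 and 0 in WT, with medians of 0.27 and 0.97. The platelet receptor chains Gp5 and Gp9 had KO steps of 1.65 (SE 0.17) and 1.32 (SE 0.15), against 1.63 and 1.23 in WT. Vwf, the adhesive factor of platelets and endothelium, was higher in KO GMP by 0.67 (KO step -0.67, SE 0.14, adjusted p = 0.0064), and its difference was -1.03 (adjusted p = 0.0087). Differences were called for 7 of the 19, but for 1 to 3 without replicate 1 or 3 of LSK KO, replicate 1 or 2 of LSK WT or any GMP WT array, and for 4 without LSK KO replicate 2.

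**Figure D2:**
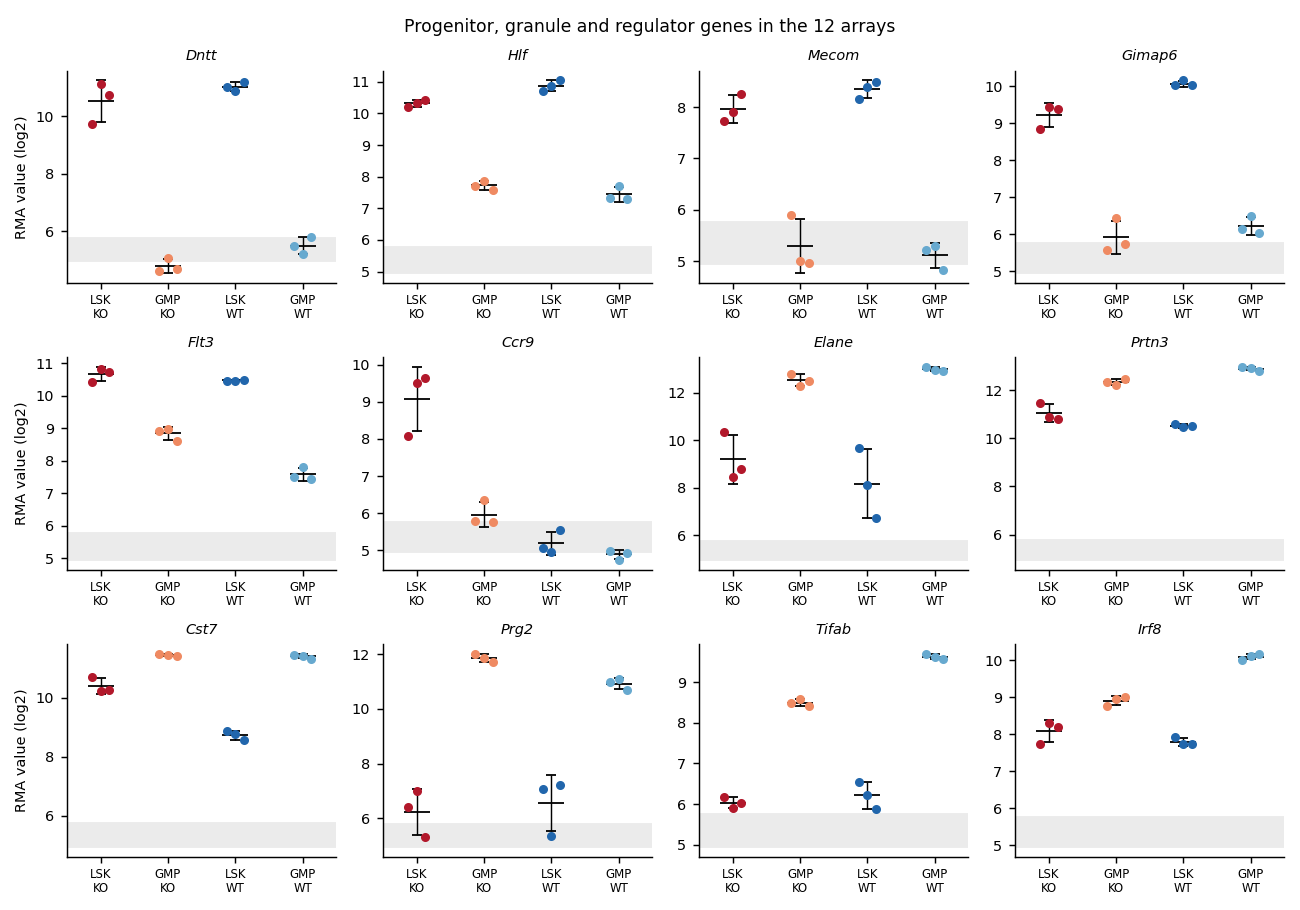
RMA values (log2) of 12 genes in the 12 arrays, with each dot an array, the bar the group mean and the whiskers its SD (n = 3). The grey band spans 4.95 to 5.77, the readings of the deleted Lamtor2 in the KO arrays. Dntt and Gimap6 part LSK from GMP alike in KO and WT, Ccr9 does so in KO, and Elane, Prtn3 and Cst7 of the granulocyte programme have higher means in LSK KO (9.19, 11.05 and 10.40) than in LSK WT (8.16, 10.51 and 8.73). LSK KO was not tested against LSK WT, and the Elane mean of LSK KO is raised by a single array.

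Genes of the neutrophil primary granule and of GMP were higher in GMP in KO as in WT, with a shorter step. Of 23 measured, 16 were called higher in GMP in KO and 0 in LSK (18 and 0 without GMP KO replicate 1), against 5.79% of all genes, and 22 in WT. The median step was -1.07 in KO and -1.90 in WT. A called difference was found for 13, all positive, and the KO step was the smaller, with the same sign, for 20. The mean of the list lay between 9.49 and 9.79 in LSK KO and 8.69 and 9.29 in LSK WT, and between 10.64 and 10.77 in GMP KO and 11.04 and 11.21 in GMP WT, so the gap was the narrower at both ends. Elane, neutrophil elastase, read 10.36, 8.43 and 8.77 in LSK KO and 12.79, 12.29 and 12.48 in GMP KO. There was no overlap, and the KO step was -3.33 (SE 0.58, adjusted p = 0.00193), against -4.81 in WT (difference 1.48, adjusted p = 0.324). Prtn3, proteinase 3, had a KO step of -1.27 (SE 0.15, adjusted p = 9.6e-05) and a WT step of -2.37 (difference 1.10, adjusted p = 0.00779). Cst7, the cystatin of granule proteases, read 10.71, 10.22 and 10.27 in LSK KO and 11.47, 11.46 and 11.41 in GMP KO. There was no overlap, the KO step was -1.05 (SE 0.13, adjusted p = 0.000149), and the WT step was -2.67, from an LSK mean of 8.73 (difference 1.62, SE 0.18, adjusted p = 0.000625). Alas1, the first enzyme of haem synthesis in non-erythroid cells, had steps of -1.85 in KO and -3.07 in WT (difference 1.22, adjusted p = 0.00579). The serine protease Prss57 had -0.89 and -2.44 (difference 1.55, adjusted p = 0.00172). Ms4a3, a membrane protein that marks GMP, had a KO step of -2.59 (SE 0.48, adjusted p = 0.00273) and a WT step of -4.88 (difference 2.29, adjusted p = 0.0536).

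Genes of secondary granules and neutrophil maturation were called higher in GMP for 7 of 26 in KO and 8 in WT, and 1 was higher in LSK in each. Their median of -0.51 in KO became -0.10 without GMP KO replicate 1. The list mean was 7.52, 8.62 and 7.68 in LSK KO and 9.21, 8.16 and 8.15 in GMP KO. In WT it was 8.44, 7.40 and 7.10 in LSK and 9.19, 8.09 and 8.57 in GMP, so LSK and GMP overlapped in both genotypes. Trem3, a myeloid receptor, had a KO step of -1.78 (SE 0.22, adjusted p = 0.000144) against -3.70 in WT (difference 1.92, adjusted p = 0.00369). Slpi, the secreted inhibitor of elastase, had -1.58 against -2.94 (difference 1.36, adjusted p = 0.00379). Hdc, which makes histamine, read 9.31, 7.96 and 8.37 in LSK KO and 9.82, 10.47 and 9.93 in GMP KO. The KO groups did not overlap, the KO step was -1.52 (SE 0.32, adjusted p = 0.00577), and the WT step was -3.85 (difference 2.32, SE 0.45, adjusted p = 0.00846).

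Of 21 myeloid transcription factors, 11 were called higher in GMP in KO and 2 in LSK, as many in GMP as in WT (11 and 3), and without GMP KO replicate 1 the KO counts were 12 and 3. Cebpe, which drives granule maturation, read 7.12, 6.91 and 6.73 in LSK KO and 9.02, 8.41 and 8.38 in GMP KO. The arrays did not overlap, and the KO step was -1.68 (SE 0.17, adjusted p = 4.05e-05) against -2.43 in WT. Irf8, the factor of the monocyte and dendritic branch, read 7.74, 8.31 and 8.19 in LSK KO and 8.76 or higher in the 3 GMP KO arrays, again without overlap. Its KO step of -0.82 (SE 0.13, adjusted p = 0.00128) compared with a WT step of -2.31 up to a GMP mean of 10.09 (difference 1.49, SE 0.19, adjusted p = 0.00143). Cebpa, which is needed to form GMP, had a KO step of -0.52 (SE 0.15, adjusted p = 0.0314) and a WT step of -1.63 (difference 1.12, adjusted p = 0.00738). The Cebpa call in KO was lost without any single LSK KO array or without GMP KO replicate 2 (-0.33), with an adjusted p of up to 0.0929. Klf4, a factor of monocyte formation, was not called in KO (-0.35, adjusted p = 0.107), was called in WT (-1.15), and had a difference of 0.80 (adjusted p = 0.0258, and up to 0.068 without replicate 1 or 3 of LSK KO, replicate 2 of LSK WT, or replicate 2 or 3 of GMP WT). Maf, a factor of macrophages, was higher in KO GMP by 0.96 (KO step -0.96, SE 0.14, adjusted p = 0.000542), against -0.10 in WT (difference -0.86, adjusted p = 0.0181). The Maf difference had an adjusted p of up to 0.0517 without LSK KO replicate 3 or GMP WT replicate 2. KO and WT steps had the same sign for Nfil3 (-0.87 and -1.05), Zeb2 (-0.82 and -0.90), Cebpb (-0.74 and -0.57), Spi1, which encodes PU.1 (-0.43 and -0.62), Gfi1 (-0.60 and -0.84) and Cebpd (-0.63 and -1.25). For these 6 the difference was not called (adjusted p from 0.0789 to 0.812), which does not show equal steps, and with the 6 KO arrays alone Spi1, Gfi1 and Cebpd were not called. Rara, the retinoic acid receptor, and Gfi1b, a repressor of the erythroid and platelet branches, were higher in KO LSK by 0.77 and 0.88, and the latter was lost with the 6 KO arrays alone (adjusted p = 0.0503). The members Id2 (-0.55), Irf5 (-0.44), Batf3 (-0.12), Myb (-0.06), Runx1 (-0.04), Bach2 (0.38) and Nr4a1 (0.59) were not called. The difference was called for 4 of the 21, but for 2 without LSK KO replicate 3 or GMP WT replicate 2 and for 7 without GMP KO replicate 1.

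Monocyte genes were called higher in GMP for 15 of 22 in KO and 13 in WT (2 and 1 higher in LSK), and without LSK KO replicate 3 the KO counts were 9 and 1. Tifab, a regulator of TRAF6 signalling, read 6.18, 5.91 and 6.02 in LSK KO and 8.49, 8.59 and 8.41 in GMP KO. The arrays were clearly apart, with a KO step of -2.46 (SE 0.14, adjusted p = 8.4e-07) and a WT step of -3.41 (difference 0.95, adjusted p = 0.012). Csf1r, the receptor for M-CSF, had a KO step of -1.74 (SE 0.28, adjusted p = 0.00119) and a WT step of -2.73. F13a1, the transglutaminase factor XIII A chain, read 9.21, 8.47 and 8.59 in LSK KO and 10.86 to 11.14 in GMP KO. No KO array crossed over, yet the KO step of -2.24 (SE 0.40, adjusted p = 0.0022) was far from the WT step of -5.02 (difference 2.77, SE 0.56, adjusted p = 0.0106), with a WT LSK mean of 5.77. Ccr2, the receptor for the chemokine Ccl2, had a KO step of -1.05 (SE 0.29, adjusted p = 0.0277, and up to 0.0966 without replicate 2 or 3 of LSK KO or of GMP KO) and a WT step of -3.61 (difference 2.56, SE 0.41, adjusted p = 0.00375). Ly86, the partner of a Toll-like receptor relative, had -2.39 and -4.48 (difference 2.09, adjusted p = 0.0178, and 0.0535 without GMP WT replicate 2). Differences were called for 8 of the 22, all positive, and for 5 without GMP WT replicate 2.

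Several of the largest steps toward GMP were in genes of eosinophils, basophils and mast cells. Prg2, eosinophil major basic protein, read 6.40, 6.99 and 5.33 in LSK KO and 12.01, 11.86 and 11.73 in GMP KO. All GMP KO arrays lay far above all LSK KO arrays, with a KO step of -5.63 (SE 0.44, adjusted p = 5.32e-06) and a WT step of -4.38 (difference -1.24, adjusted p = 0.26). Prss34, a protease of basophils, had a KO step of -4.09 (SE 0.46, adjusted p = 7.84e-05), Prg3, the relative of Prg2, a KO step of -3.31 (SE 0.25), a lower bound in size, and Mcpt8, a basophil protease, -2.44 (SE 0.33). Epx, eosinophil peroxidase, was higher in KO GMP by at least 1.94 (KO step -1.94, SE 0.14, adjusted p = 3.54e-06). Of the 21 genes of the list 9 were called higher in GMP in KO and 0 in LSK (11 and 0 without GMP KO replicate 1), as were 10 and 0 in WT, and the difference was called for 1 in each direction. Without GMP KO replicate 2 the difference was called for 5 positive and 1 negative, and the KO median of -0.66 became -0.31. The list mean lay between 7.59 and 8.39 in GMP KO and between 6.98 and 7.26 in GMP WT. Hpgds, the prostaglandin D synthase, stood at 8.66, 9.59 and 9.45 in LSK KO and 9.98, 9.88 and 9.99 in GMP KO, where the WT means were 5.69 and 5.09. Its KO step of -0.72 (SE 0.22, adjusted p = 0.0376) was lost, at up to 0.124, without LSK KO replicate 1 (-0.43), LSK KO replicate 3, GMP KO replicate 1 or GMP KO replicate 3.

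Macrophage genes were higher in GMP in KO, where WT showed little. Of 26 measured, 14 were called higher in GMP in KO and 1 in LSK (17 and 0 without GMP KO replicate 1), against 4 and 0 in WT, with medians of -0.96 and -0.05. The list mean lay between 6.14 and 6.85 in LSK KO, 7.16 and 7.58 in GMP KO, 5.40 and 5.60 in LSK WT, and 5.67 and 5.75 in GMP WT, with LSK KO replicate 2 the highest LSK array. At or below 5.77 were 10 of the 26 in LSK KO, 7 in GMP KO, 14 in LSK WT and 13 in GMP WT. Msr1, Cd5l, Timd4 and Cd36 had means below 5.77 in all 4 groups, and 8 of the 26 also stand in another list. Ms4a7, a membrane protein of macrophages, read 5.72, 7.16 and 6.55 in LSK KO and 8.55, 9.05 and 9.64 in GMP KO. The KO arrays did not overlap, with a KO step of -2.61 (SE 0.31, adjusted p = 0.000109) against WT means of 4.10 and 4.18 (difference -2.53, SE 0.43, adjusted p = 0.00476). C1qc, which encodes 1 chain of the complement component C1q, read 8.12, 9.86 and 8.27 in LSK KO and 10.66, 10.81 and 11.02 in GMP KO. LSK KO replicate 2 was the nearest to GMP but still below, and the KO step was -2.08 (SE 0.36, adjusted p = 0.00185) against 0.55 in WT (difference -2.63, SE 0.51, adjusted p = 0.00858). Hmox1, the haem oxygenase of iron-recycling cells, read 7.03, 7.62 and 7.12 in LSK KO and 9.24, 8.74 and 9.16 in GMP KO. Again the groups did not overlap, and the KO step of -1.79 (SE 0.20, adjusted p = 6.47e-05) stood against 0.55 in WT (difference -2.34, SE 0.28, adjusted p = 0.000855). Cd68, a glycoprotein of macrophage lysosomes, had steps of -1.42 in KO and -0.82 in WT (difference -0.60, adjusted p = 0.261). Vcam1, the adhesion molecule, was higher in KO GMP by at least 1.51 (KO step -1.51), with a WT step of -1.39. Adgre1, Mrc1 and Mertk, macrophage surface proteins chosen after their values were seen, were called in KO at -1.56, -2.32 and -1.20 (adjusted p = 0.00103, 0.00136 and 0.0253), the Mrc1 step being a lower bound in size, and had GMP WT means of 6.78, 4.90 and 4.84. A called difference was found for 7 of the 26, 6 of them negative, and for 4 without LSK KO replicate 3 or GMP WT replicate 2 and 11 without LSK KO replicate 2.

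Complement and TAM receptor genes held the same C1q chains. Of 15, 7 were called higher in GMP in KO and 0 in LSK, against 1 and 1 in WT, and the KO count was 3 without LSK KO replicate 1 or LSK KO replicate 3. Gas6, the ligand of the TAM receptors Tyro3, Axl and Mertk, read 6.84, 7.32 and 7.36 in LSK KO and 8.52, 9.14 and 9.12 in GMP KO. The groups did not overlap, and the step ran against that in WT: -1.76 in KO (SE 0.18, adjusted p = 4.05e-05) and 0.93 in WT (adjusted p = 0.00198), with a difference of -2.68 (SE 0.25, adjusted p = 0.000182). C1qb had a KO step of -1.96 (SE 0.36, adjusted p = 0.00287) and a difference of -2.06 (adjusted p = 0.0269, and up to 0.0804 without replicate 1 or 3 of LSK KO, any LSK WT array, or replicate 2 or 3 of GMP WT). C1qa had -0.97 (adjusted p = 0.0112, and up to 0.0646 without LSK KO replicate 1 or LSK KO replicate 3). The difference was called for 3 of the 15, for 5 without LSK KO replicate 2 or GMP KO replicate 2, and for 6 without GMP KO replicate 1.

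Lysosomal genes were higher in GMP than in LSK in KO. Of 54 genes of lysosomal enzymes and membrane proteins 24 were called higher in GMP and 1 in LSK (26 and 1 without GMP KO replicate 1), and in WT 21 and 6. The medians were -0.36 and -0.19. The list mean was 8.87 to 9.17 in LSK KO, 9.33 to 9.59 in GMP KO, 8.40 to 8.43 in LSK WT and 8.61 to 8.74 in GMP WT. The mean of the macrophage list, given above, was also highest in GMP KO, and within LSK KO both lists were highest in replicate 2. Its part in the lysosomal result was not tested. Of 17 genes of the vacuolar ATPase, the proton pump of lysosomes, 9 were called higher in GMP in KO and 0 in LSK (11 and 0 without GMP KO replicate 1), with a median of -0.52, as were 11 and 1 in WT, with a median of -0.42.

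The promoters of 3 of these genes are shown, because the MiT/TFE factors bind the letters TCACGTG, a form of CACGTG that recurs before lysosomal genes. The 3 were picked among called genes because they hold TCACGTG, so their matches were fixed in advance. Each line gives the 250 bases before the start in RefSeq's GRCm38.p6 annotation on the gene's strand, with TCACGTG on either strand in capitals. Gla lies at chrX:134601006-134601255 (minus strand), Lgmn at chr12:102439093-102439342 (minus strand, 1 of its 2 entries) and Atp6v0b at chr4:117887330-117887579 (minus strand). The array files name no build, so these positions are RefSeq's alone.
Gla: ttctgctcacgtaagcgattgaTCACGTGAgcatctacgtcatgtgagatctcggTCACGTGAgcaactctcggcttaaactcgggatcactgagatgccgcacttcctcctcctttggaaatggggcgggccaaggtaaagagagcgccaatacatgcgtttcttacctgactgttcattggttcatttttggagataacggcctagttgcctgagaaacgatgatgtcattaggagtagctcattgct
Lgmn: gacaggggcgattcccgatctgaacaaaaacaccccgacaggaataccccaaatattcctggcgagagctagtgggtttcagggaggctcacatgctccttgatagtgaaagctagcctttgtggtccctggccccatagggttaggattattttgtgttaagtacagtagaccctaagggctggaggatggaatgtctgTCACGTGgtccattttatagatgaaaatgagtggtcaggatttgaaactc
Atp6v0b: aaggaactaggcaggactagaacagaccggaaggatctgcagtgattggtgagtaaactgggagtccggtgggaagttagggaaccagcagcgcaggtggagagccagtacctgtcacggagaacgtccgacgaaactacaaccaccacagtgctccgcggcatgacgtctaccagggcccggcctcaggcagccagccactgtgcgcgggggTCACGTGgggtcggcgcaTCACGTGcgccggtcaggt
In promoters of 300 bases, 50 of them after the start, TCACGTG was found for 13 of 48 lysosomal genes with an entry, 4 of 11 vacuolar ATPase genes and 4.29% of 27025 genes in all. TCACGTG was also found for 4 of 35 S phase genes (11.4%) and 2 of 36 G2 and mitosis genes (5.56%). Of 17 macrophage genes and 17 unfolded protein response genes 0 held it. The form TCATGTG was found for 9 of the 48 lysosomal genes (18.8%), 4 of the 17 macrophage genes (23.5%), 0 of the 11 vacuolar ATPase genes and 4.31% of all genes. Motif counts, here and below, cover measured list members whether called or not. They describe the lists, and their relation to the KO step was not tested.

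Lgmn, the asparaginyl protease of lysosomes, read 8.35, 9.48 and 8.63 in LSK KO and 10.41, 10.76 and 10.98 in GMP KO. There was no overlap, with a KO step of -1.90 (SE 0.24, adjusted p = 0.000178), and the WT means were 6.17 and 5.68 (difference -2.39, SE 0.33, adjusted p = 0.00179). Gla, the galactosidase deficient in Fabry disease, read 8.54, 8.88 and 8.79 in LSK KO and 9.76, 9.84 and 10.45 in GMP KO. It did not overlap either, and its KO step of -1.28 (SE 0.15, adjusted p = 0.000141) was near the WT step of -1.69 (difference 0.41, adjusted p = 0.304). Progranulin, Grn, had steps of -0.90 in KO and -0.52 in WT, Lamp1, the main glycoprotein of the lysosomal membrane, -0.91 and -0.70, and the cathepsin Ctsz -1.13 and -1.41. Atp6v0b, a subunit of the membrane sector of the pump, read 9.59, 9.76 and 9.59 in LSK KO and 10.46, 10.38 and 10.43 in GMP KO. The groups were apart, at -0.78 (SE 0.12, adjusted p = 0.000921). Atp6v0a1, another membrane subunit, had a KO step of -1.44 (SE 0.14, adjusted p = 2.29e-05) and Tcirg1, its relative, -1.07 (SE 0.14, adjusted p = 0.00021). For Atp6v0b, Atp6v0a1 and Tcirg1 the difference was not called (adjusted p from 0.0573 to 0.181). Over the 54 lysosomal genes the difference was called negative for 6 and positive for 2, against 2.64% and 5.34% of all genes. Over the 17 vacuolar ATPase genes it was called for 0. A pair of lysosomal transport genes had a called negative difference, as had Lgmn. Npc1, which exports cholesterol from lysosomes, was higher in GMP in KO (-0.85, SE 0.12, adjusted p = 0.000591) and higher in LSK in WT (0.52, adjusted p = 0.00925), with a difference of -1.36 (adjusted p = 0.00143). Mcoln1, the lysosomal calcium channel, had -0.65 in KO (SE 0.09, adjusted p = 0.000283) and 0.20 in WT (difference -0.85, adjusted p = 0.00216).

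The folliculin and MiT/TFE genes had 4 of 7 called higher in GMP in KO and 0 in LSK. Fnip2, a folliculin partner, read 8.40, 9.08 and 8.65 in LSK KO and 10.54, 10.33 and 10.25 in GMP KO. The KO groups did not overlap, with a KO step of -1.67 (SE 0.15, adjusted p = 1.5e-05), a WT step of 0.34 (adjusted p = 0.133) and a difference of -2.01 (SE 0.21, adjusted p = 0.000397). Tfec, the MiT/TFE member of myeloid cells, had a KO step of -1.55 (SE 0.13, adjusted p = 1.1e-05), alike in WT at -1.53. Mitf had -0.67 in KO (SE 0.11, adjusted p = 0.0011), and -0.09 at its other probe set. Tfeb had -0.39 (SE 0.09, adjusted p = 0.0139, and up to 0.0706 without LSK KO replicate 1 or LSK KO replicate 3). Fnip1 (-0.16), Tfe3 (-0.25) and Flcn (0.10) were not called. The difference was also called for Tfeb (-0.49, adjusted p = 0.0399) and Tfe3 (-0.55, adjusted p = 0.0482), but neither call held in most fits with 1 array left out: the 3 calls became 1 without any single array other than LSK KO replicate 2 and GMP KO replicate 1.

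Ragulator, Rag GTPase and mTORC1 genes were called higher in LSK for 5 of 33 in KO and higher in GMP for 1, against 10.1% and 5.79% of all genes, and without LSK KO replicate 3 for 3 and 0 (8 and 2 without GMP KO replicate 2). Lamtor1, the subunit that holds Ragulator to the membrane, was the 1 higher in GMP (-0.51, SE 0.12, adjusted p = 0.0134, and up to 0.0626 without LSK KO replicate 3), while the gene's other probe set read -0.55. Rragb, a Rag GTPase, was higher in KO LSK by 0.92 (SE 0.15, adjusted p = 0.00134), and the mTORC1 inhibitors Sesn1 and Ddit4 by 0.87 (SE 0.12) and 0.79 (SE 0.16). Deptor, a component that restrains mTOR, was not called in KO (0.31) but differed between the steps (0.70, adjusted p = 0.013). Autophagy genes went both ways, 5 of 32 higher in LSK and 6 in GMP (2 and 5 without LSK KO replicate 3, 2 and 7 without GMP KO replicate 1). Gabarap, which decorates autophagosomes, was higher in KO GMP by 0.58 (KO step -0.58, SE 0.09, adjusted p = 0.00105) against 0.14 in WT (difference -0.71, adjusted p = 0.00625). Its relative Gabarapl1 was higher in KO LSK by 0.73 (SE 0.12, adjusted p = 0.0011), as in WT (1.02). The kinase Ulk1, which starts autophagy, was higher in LSK by 0.61 (SE 0.10). Sqstm1, the receptor p62, had -0.37 in KO (adjusted p = 0.0125, up to 0.0518 without LSK KO replicate 1), 0.31 in WT and a difference of -0.68 (adjusted p = 0.00678).

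Among 15 genes of lipid efflux and storage 4 were called higher in GMP in KO and 1 in LSK (6 and 2 without GMP KO replicate 2), as against 4 and 4 in WT. Fabp4, a fatty acid carrier of macrophages and fat cells, had a KO step of -1.91 (SE 0.32, adjusted p = 0.0015) against 0.23 in WT (difference -2.13, adjusted p = 0.013). Olr1, the receptor for oxidised LDL, was higher in KO GMP by at least 2.28 (KO step -2.28, SE 0.18, adjusted p = 6e-06), and Plin2, a coat protein of lipid droplets, by 1.02 (KO step -1.02, SE 0.18). Apoe, a lipid carrier, was not called in KO (-0.54, adjusted p = 0.158), was higher in LSK in WT by 1.15, and had a difference of -1.69 (adjusted p = 0.012). Abcg1, a cholesterol exporter, was higher in LSK by 0.60 in KO and 1.52 in WT (difference -0.92, adjusted p = 0.0064). The macrophage list mean moved with these as well, and its part was not tested. Sterol synthesis genes were called higher in LSK for 7 of 25 in KO and in GMP for 0, with a median of 0.33 (0.15 without GMP KO replicate 1, with 7 called), and for 4 without LSK KO replicate 3. Srebf2, the main switch of cholesterol synthesis, was higher in KO LSK by 0.90 (SE 0.10, adjusted p = 8.61e-05) and by 1.19 in WT.

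**Figure D3:**
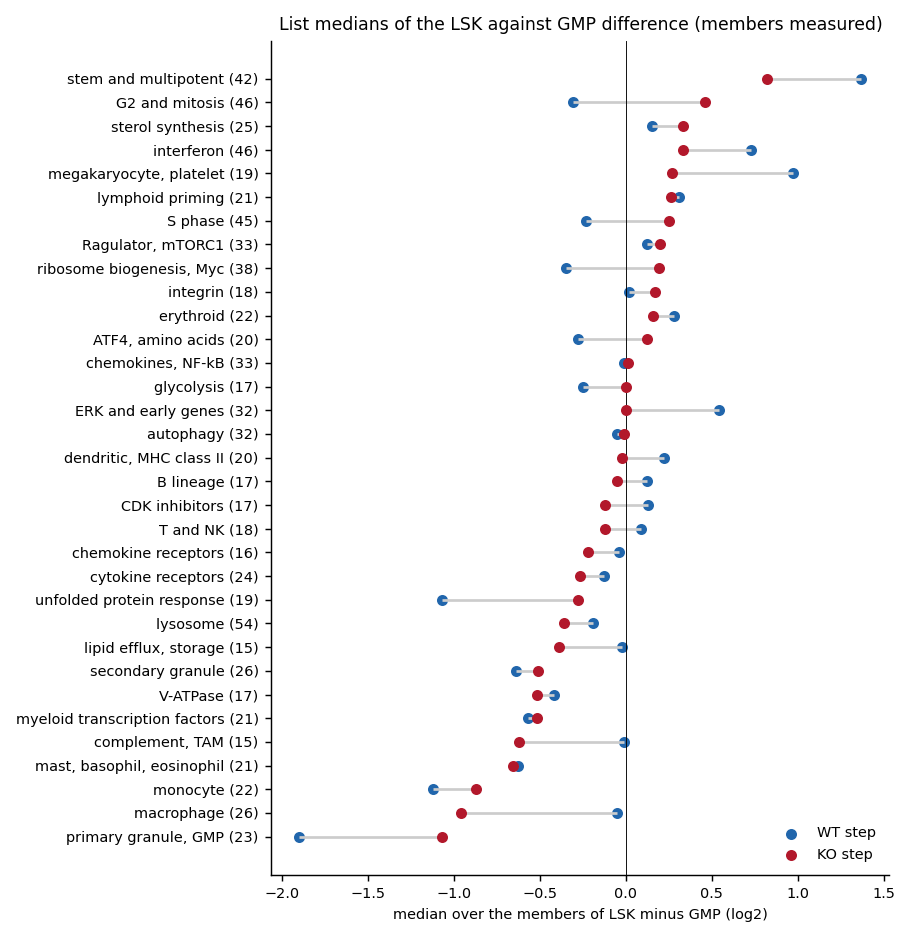
Median step (LSK minus GMP, log2) over the measured members of each gene list, red for KO and blue for WT, with the number of members in brackets. The stem cell list goes from 1.37 in WT to 0.82 in KO and the primary granule list from -1.90 to -1.07, while G2 and mitosis, S phase and ribosome biogenesis lie below 0 in WT and above 0 in KO, and the macrophage list reaches -0.96 in KO.

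Cell division genes stood the other way round in KO. Of 46 genes of G2 and mitosis 21 were called higher in LSK in KO and 0 in GMP (16 and 0 without GMP KO replicate 1), against 0 and 9 in WT, with medians of 0.46 and -0.31. A called difference was found for 21, all positive (5.34% of all genes), with a median of 0.76, where that of all genes was -0.03. The KO step was above 0 for 44 of the 46. The list mean was 8.77, 8.38 and 8.68 in LSK KO, at most 8.40 in GMP KO, 9.05, 8.84 and 8.77 in LSK WT, and 9.25, 9.17 and 9.11 in GMP WT. GMP KO read lowest, and its replicate 3 overlapped the lowest LSK KO array. The counts depended on single arrays: the KO count was 8 and 7 without replicates 1 and 3 of LSK KO, and 32 without GMP KO replicate 3. The count of differences was 9 without replicate 1 or 3 of LSK KO, replicate 2 or 3 of LSK WT or replicate 2 of GMP WT, 10 without GMP WT replicate 1 and 13 without GMP WT replicate 3.

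The promoters of Top2a (chr11:99024190-99024439, minus strand) and Kif11 (chr19:37376132-37376381, plus strand) are shown because cell cycle genes of this phase share the letters TTTGAA and CCAAT. Both genes were picked among called members of the list because they hold both motifs. These motifs are in capitals on either strand, in RefSeq's GRCm38.p6 annotation.
Top2a: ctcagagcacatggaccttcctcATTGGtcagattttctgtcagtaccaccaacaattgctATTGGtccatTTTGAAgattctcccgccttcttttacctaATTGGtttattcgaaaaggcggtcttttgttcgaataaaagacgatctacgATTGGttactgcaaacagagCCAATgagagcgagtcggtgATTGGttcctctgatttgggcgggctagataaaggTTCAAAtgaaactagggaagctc
Kif11: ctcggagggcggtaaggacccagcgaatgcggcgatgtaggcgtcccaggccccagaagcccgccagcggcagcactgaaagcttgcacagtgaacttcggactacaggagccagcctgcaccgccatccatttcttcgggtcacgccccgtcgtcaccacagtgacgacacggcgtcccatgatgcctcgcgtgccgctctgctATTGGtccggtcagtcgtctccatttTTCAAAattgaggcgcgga
TTTGAA was found in the 300 bases of 26 of 36 G2 and mitosis genes with an entry (72.2%), 4 of 35 S phase genes and 20.2% of all genes, and CCAAT in 28 of the 36 (77.8%), 21 of the 35 S phase genes (60.0%), 15 of 17 unfolded protein response genes (88.2%) and 41.1% of all genes. These motifs were searched after the list results were seen.

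Cenpf, a kinetochore protein of dividing cells, read 8.18, 8.12 and 8.37 in LSK KO and 6.79, 7.01 and 7.59 in GMP KO. The arrays did not overlap, and the KO step was 1.09 (SE 0.16, adjusted p = 0.000702) against -0.02 in WT (difference 1.11, SE 0.23, adjusted p = 0.012). Top2a, the topoisomerase that untangles chromosomes, had a KO step of 0.73 (SE 0.12, adjusted p = 0.00114) and a difference of 0.87 (adjusted p = 0.00791). Its other probe set gave a KO step of -0.28, and the mean of the probe sets was not called. Kif11, the spindle motor, chosen after its values were seen, read 9.81, 9.42 and 9.83 in LSK KO and 9.02, 8.74 and 9.27 in GMP KO. The arrays were apart, at 0.68 (SE 0.15, adjusted p = 0.00777), with a WT step of -0.35 and a difference of 1.03 (adjusted p = 0.0105). Aspm, a spindle pole protein, and Nusap1, a spindle microtubule protein, were higher in KO LSK by 1.01 and 1.02 (SE 0.17 each). Bub1b, a checkpoint kinase, was higher by 0.49 (adjusted p = 0.00545) with a difference of 0.85 (adjusted p = 0.00404), and Cenpe, a kinetochore motor, by 0.56 (adjusted p = 0.0114) with 1.30 (adjusted p = 0.00213). With the 6 KO arrays alone Bub1b and Cenpe were not called, and Cenpe had an adjusted p of 0.0646 without LSK KO replicate 3.

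S phase genes were called higher in LSK for 14 of 45 in KO and in GMP for 1 (9 and 1 without GMP KO replicate 1), and in WT for 0 and 14, with medians of 0.25 and -0.23. The KO count of 15 was 7, 9 and 5 without replicates 1, 2 and 3 of LSK KO. Chaf1b, which loads histones on new DNA, was higher in KO LSK by 0.68 (SE 0.14, adjusted p = 0.00593). Fen1, the flap nuclease of lagging strands, read 7.41, 7.72 and 7.45 in LSK KO and 7.31, 7.05 and 7.51 in GMP KO. Its KO arrays overlapped, at 0.24 (adjusted p = 0.275), whereas the WT step was -0.80 (adjusted p = 0.00114) and the difference 1.04 (SE 0.20, adjusted p = 0.00895). Hells, a chromatin remodeller of replicating cells, likewise had 0.25 in KO (adjusted p = 0.158), -0.66 in WT and a difference of 0.91 (adjusted p = 0.00606). The difference was called for 14 of the 45, all positive, for 6 without LSK KO replicate 3 or GMP WT replicate 2, 7 without LSK WT replicate 2, 8 without LSK WT replicate 3, 9 without GMP WT replicate 3 and 22 without GMP KO replicate 1.

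Ribosome biogenesis and Myc response genes were called higher in GMP for 18 of 38 in WT and 0 in KO, and higher in LSK for 7 in KO and 0 in WT. The medians were -0.35 in WT and 0.19 in KO, and the difference was called for 19, all positive, with a median of 0.58. The list mean was 10.05 to 10.11 in LSK KO, 9.79 to 9.98 in GMP KO, 9.81 to 9.89 in LSK WT and 10.18 to 10.30 in GMP WT. LSK KO lay above GMP KO on every array, and in WT the order was turned. Tfrc, the transferrin receptor, read 9.30, 9.15 and 9.47 in LSK KO and 9.05, 9.16 and 9.44 in GMP KO. The KO arrays overlapped (0.09, SE 0.11, adjusted p = 0.588), while WT rose from a mean of 8.66 in LSK to 10.07 in GMP (WT step -1.42, adjusted p = 1.52e-06), and the difference was 1.51 (SE 0.16, adjusted p = 0.000434). Nop14, a factor of the small ribosomal subunit, was higher in KO LSK by 0.56 (SE 0.11, adjusted p = 0.00405), with a difference of 0.87 (adjusted p = 0.00545). Dkc1, the pseudouridine synthase of ribosomal RNA, had 0.36 in KO (adjusted p = 0.0233, and up to 0.109 without LSK KO replicate 3 or GMP KO replicate 1), -0.48 in WT and a difference of 0.84 (adjusted p = 0.00386). Gar1, its partner, was not called in KO (0.25, adjusted p = 0.0662) and had a difference of 0.72 (adjusted p = 0.00442). The 7 calls in KO became 3, 4 and 1 without LSK KO replicates 1, 2 and 3 and 2 without GMP KO replicate 1, and the 19 differences became 12 without replicate 3 of LSK KO or replicate 1 of LSK WT, and 11 without replicate 2 of LSK WT or of GMP WT.

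Genes of protein folding in the endoplasmic reticulum had shorter steps toward GMP in KO than in WT. Of 19 genes of the unfolded protein response 7 were called higher in GMP in KO and 15 in WT, 0 were higher in LSK in either, and the medians were -0.28 and -1.07. Differences were called for 11, all positive, with a median of 0.71, and with 1 array left out for 11 to 13. The list mean was 9.37 to 9.45 in LSK KO, 9.63 to 9.83 in GMP KO, 9.22 to 9.42 in LSK WT and 10.20 to 10.28 in GMP WT, so GMP KO lay between WT LSK and WT GMP. The promoter of Pdia6 (chr12:17266339-17266588, plus strand, RefSeq's GRCm38.p6) is shown because it holds, in capitals, the element of this response, CCAAT, 9 bases and CCACG.
Pdia6: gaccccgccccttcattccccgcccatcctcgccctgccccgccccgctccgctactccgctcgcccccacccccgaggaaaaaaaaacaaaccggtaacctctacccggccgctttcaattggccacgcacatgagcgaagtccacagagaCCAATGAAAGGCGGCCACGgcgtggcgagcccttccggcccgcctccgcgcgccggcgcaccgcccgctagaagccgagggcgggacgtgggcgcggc
That element, CCAAT and CCACG at a fixed gap, on either strand, was found in 6 of 17 genes of the list with an entry (35.3%) and in 37 of 27025 genes (0.137%). It contains the CCAAT counted above.

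Pdia6, a disulphide isomerase, read 9.99, 10.18 and 9.98 in LSK KO and 10.20, 10.48 and 10.46 in GMP KO. The groups were just apart (-0.33, SE 0.11, adjusted p = 0.0468, and up to 0.159 without replicate 1 or 3 of LSK KO or replicate 2 or 3 of GMP KO). The WT step was -1.43, to a GMP mean of 11.29, and the difference was 1.10 (SE 0.15, adjusted p = 0.00148). Hyou1, a chaperone, had -0.41 in KO (adjusted p = 0.0179, up to 0.0773 without LSK KO replicate 1) and -1.33 in WT (difference 0.92, adjusted p = 0.0037). Ero1a, which oxidises the isomerases, had -0.51 in KO (adjusted p = 0.0193, and up to 0.0803 without LSK KO replicate 2, LSK KO replicate 3 or GMP KO replicate 3) and -1.77 in WT (difference 1.27, adjusted p = 0.0023). Sdf2l1, a cofactor of the chaperone BiP, read 8.72, 8.53 and 8.60 in LSK KO and 9.72, 9.66 and 9.66 in GMP KO. It was clearly apart in KO at -1.06 (SE 0.11, adjusted p = 4.19e-05), but further in WT at -1.96 (difference 0.90, adjusted p = 0.00476). Edem1, Manf and Xbp1 had KO steps of -0.89, -0.57 and -0.56, with differences that were not called (adjusted p from 0.0656 to 0.728). Of 20 genes of amino acid supply and the ATF4 response 4 were called higher in LSK in KO (1 to 2 without LSK KO replicate 1, LSK KO replicate 3 or GMP KO replicate 1) and 8 higher in GMP in WT. A called difference was found for 7, all positive. Phgdh, which opens serine synthesis, had 0.48 in KO (adjusted p = 0.00946, and 0.052 without LSK KO replicate 3), -0.56 in WT and a difference of 1.03 (SE 0.15, adjusted p = 0.00233). Psat1, the next enzyme, was not called in KO (0.15) and had a difference of 0.88 (adjusted p = 0.00508).

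**Figure D4:**
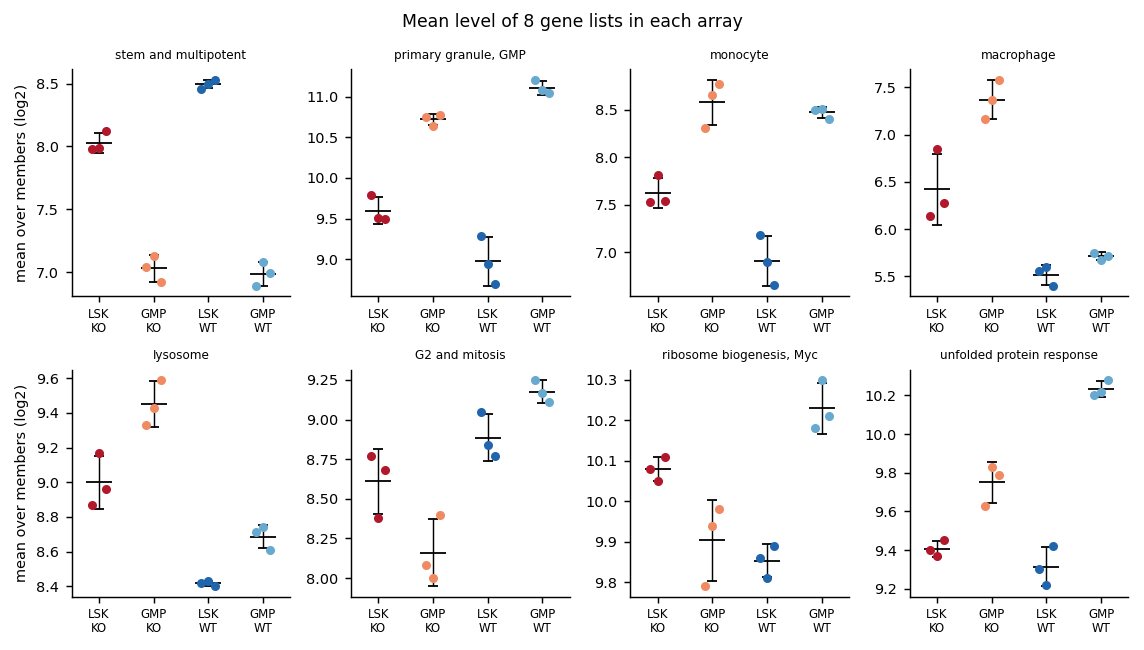
Mean RMA value (log2) over the measured members of 8 gene lists in each array, with group means and SD (n = 3). GMP KO lies below GMP WT for G2 and mitosis, ribosome biogenesis and the unfolded protein response, LSK KO lies below LSK WT for stem cell genes and above it for primary granule genes, and both KO groups lie above WT for macrophage and lysosome genes.

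Interferon response genes were higher in LSK in both genotypes, less so in KO. Of 46, 18 were called higher in LSK in KO and 1 in GMP (11 and 1 without LSK KO replicate 3), against 29 and 3 in WT, with medians of 0.33 and 0.73. The pIpC given to every mouse is itself an interferon inducer. Iigp1, an immunity-related GTPase, read 6.84, 6.92 and 6.58 in LSK KO and 5.13, 4.77 and 4.67 in GMP KO. No KO array crossed over, with a step of at least 1.92 (SE 0.14, adjusted p = 3.13e-06) against 2.88 in WT (difference -0.96, adjusted p = 0.00989). Ddx58, the RNA sensor RIG-I, had 1.12 in KO (SE 0.13, adjusted p = 9.54e-05) and 1.98 in WT (difference -0.86, adjusted p = 0.0129). Rtp4, a chaperone of receptors, had 0.98 in KO (SE 0.18, adjusted p = 0.00331) and 3.24 in WT (difference -2.27, SE 0.26, adjusted p = 0.000707). The difference was called for 16, 14 of them negative, and for 8 to 10 without any single array of LSK KO replicates 1 and 2, LSK WT or GMP WT. In the HIN-200 family, DNA-sensing proteins induced by interferon, Ifi203 was higher in KO LSK by 1.85 (SE 0.21, adjusted p = 8.96e-05) and Ifi207 was higher in KO GMP by 1.99 (KO step -1.99, SE 0.43, adjusted p = 0.00705, and 0.0586 with the 6 KO arrays alone). Ifi209 of that family read 4.58, 5.57 and 4.96 in LSK KO and 5.26, 5.94 and 6.44 in GMP KO, overlapping and near the readings of a deleted gene. Its WT GMP mean was 9.93, and the difference was 3.19 (SE 0.42, adjusted p = 0.00148), the largest positive difference called. Ly6a2, of the Ly6 family, was higher in KO GMP by at least 1.66 (KO step -1.66, SE 0.36, adjusted p = 0.00791) and had a WT step of -3.91 (difference 2.26, adjusted p = 0.0178, and 0.0524 without GMP WT replicate 2).

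ERK targets and immediate early genes were called higher in LSK for 13 of 32 in WT and 6 in KO, and higher in GMP for 1 in each, with medians of 0.54 and 0.00. Without LSK KO replicate 3 the KO counts were 3 in each direction and the median -0.17. Etv5, a transcription factor downstream of ERK, was higher in KO LSK by 1.66 (SE 0.31, adjusted p = 0.00301; 1.24 at its other probe set), Dusp4, a phosphatase of ERK, by 0.76 (SE 0.14) and Spred1, an inhibitor of Ras signalling, by 0.67 (SE 0.11), with WT steps of 1.20, 0.67 and 0.68. Ier3, an early response gene, read 9.54, 9.64 and 10.16 in LSK KO and 9.64, 9.97 and 9.84 in GMP KO. The KO arrays overlapped (-0.04, adjusted p = 0.887), whereas the WT step was 1.68, and the difference was -1.72 (SE 0.23, adjusted p = 0.0015). Jund, a member of AP-1, had -0.10 in KO and 1.21 in WT (difference -1.31, adjusted p = 0.0115). Differences were called for 3 of the 32, for 9 without LSK KO replicate 3 and for 5 without GMP KO replicate 1 or 2.

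Receptors for cytokines were called higher in GMP for 9 of 24 in KO and in LSK for 2 (5 and 1 without LSK KO replicate 3), with a median of -0.27 (-0.45 without GMP KO replicate 1). Ifngr1, a chain of the interferon gamma receptor, was higher in KO GMP by 1.04 (KO step -1.04, SE 0.13, adjusted p = 0.000146) and Csf2ra, of the GM-CSF receptor, by 0.83 (KO step -0.83, SE 0.13, adjusted p = 0.00115). Csf2rb, the signalling chain common to the GM-CSF and IL-3 receptors, read 9.62, 9.40 and 9.48 in LSK KO and 9.39, 10.25 and 9.51 in GMP KO. These overlapped (-0.21, adjusted p = 0.417, with the sign turned without GMP KO replicate 2), the WT step was -1.35, and the difference was 1.14 (SE 0.25, adjusted p = 0.0149). Il18r1, the receptor for IL-18, was higher in LSK by at least 0.86 in KO (adjusted p = 0.0094, and 0.0549 without LSK KO replicate 3) and by 2.36 in WT (difference -1.50, adjusted p = 0.00652). Chemokine and NF-kB genes were called for 2 of 33 in each direction in KO, against 10.1% and 5.79% of all genes, and for 12 and 2 in WT. Without GMP KO replicate 1 the KO counts were 3 higher in LSK and 4 in GMP. Ccl2, the ligand of Ccr2, was higher in KO GMP by 1.21 (KO step -1.21, SE 0.23, adjusted p = 0.00383), with WT means of 5.70 and 5.65. Nfkbia, the inhibitor of NF-kB, had -0.03 in KO and 0.83 in WT (difference -0.86, adjusted p = 0.00779), and Tnip3, another inhibitor, a WT step of 2.50 and both KO means below 5.77 (difference -1.96, SE 0.19, adjusted p = 0.000182). Of 16 chemokine receptors 1 was higher in LSK and 2 in GMP in KO, and of 18 integrins 4 and 1. Both are to be set against 10.1% and 5.79% of all genes. The integrin counts summed to 3 and 1 without replicates 1 and 3 of LSK KO, and 8 without GMP KO replicate 2.

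The metallothioneins, which bind zinc, were not called in KO. Mt1 read 11.70, 11.19 and 11.20 in LSK KO and 11.82, 11.58 and 11.81 in GMP KO, and Mt2 11.57, 10.37 and 10.11 against 11.15, 10.61 and 10.90. Both overlapped, with KO steps of -0.37 (adjusted p = 0.421) and -0.20 (adjusted p = 0.797). In WT Mt1 had means of 7.80 and 10.12, and its difference was 1.94 (SE 0.44, adjusted p = 0.0178). The zinc importers Slc39a10 and Slc39a14 were higher in KO LSK by 1.04 (SE 0.16, adjusted p = 0.000806) and 0.56 (SE 0.13, adjusted p = 0.00909), and Mtf1 (-0.17) and Slc30a1 (-0.13) were not called. Glycolysis genes were split 3 and 3 of 17 in KO and 2 and 8 in WT. Hk3, the hexokinase of myeloid cells, was higher in KO GMP by 1.10 (KO step -1.10, SE 0.12, adjusted p = 5.91e-05), and Slc2a3, a glucose transporter, was higher in KO LSK by 0.82 (SE 0.13, adjusted p = 0.000809). Pfkp, of phosphofructokinase, had -0.48 in KO (adjusted p = 0.0179, and 0.0701 without LSK KO replicate 2) and -1.29 in WT (difference 0.81, adjusted p = 0.013). Of 17 inhibitors of the cell cycle 6 were called higher in LSK and 3 in GMP (1 and 4 without LSK KO replicate 3). Gadd45b, a stress-induced gene, was higher in KO GMP by 1.38 (KO step -1.38, SE 0.24, adjusted p = 0.00162), as in WT (-1.40).

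Among 108 genes called in both genotypes in opposite directions, 71 were higher in LSK in KO and 37 were higher in GMP in KO. The difference was called for all 108, which follows from choosing genes with called steps of opposite sign and is no further result. The 10 with the smallest p-values are Gas6, above, and the 9 that follow, and 8 of the 10 were higher in KO GMP and in WT LSK. Npc1, above, was another. Timp2, an inhibitor of metalloproteases, read 7.69, 8.88 and 8.27 in LSK KO and 9.04, 9.70 and 10.05 in GMP KO. The KO arrays did not overlap, with steps of -1.32 in KO (SE 0.26, adjusted p = 0.00485) and 1.79 in WT (adjusted p = 0.000258). Emp1, a membrane protein of the PMP22 family, read 7.09, 7.50 and 7.44 in LSK KO and 9.18, 8.73 and 9.05 in GMP KO. Again without overlap, it had -1.64 in KO (SE 0.15, adjusted p = 2.03e-05) and 1.14 in WT (adjusted p = 0.000114). The Ral activator Rgl1 (-0.92 and 1.96), Hacd4, of fatty acid elongation (-0.76 and 2.09), the selenium carrier Selenop (-0.79 and 1.02), Ptms (-0.79 and 0.84) and Gpr157 (-0.67 and 0.69) did the same. In the other direction were Rnmt, which methylates the mRNA cap (0.58 in KO and -0.59 in WT), and Sla, an adaptor that damps receptor signalling (0.58 and -0.56).

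Of other large differences, most of those below were in genes called in 1 genotype, and Met was called in both, in the same direction. Wfdc17, a whey acidic protein of activated myeloid cells, read 8.67, 9.75 and 9.53 in LSK KO and 9.10, 10.96 and 10.85 in GMP KO. The KO arrays overlapped (-0.98, SE 0.40, adjusted p = 0.107), while the WT means were 9.13 in LSK and 5.62 in GMP, and the difference of -4.50 (SE 0.56, adjusted p = 0.00123) was the most negative of all. Ms4a4a, a relative of Ms4a7, read 4.97, 4.96 and 5.31 in LSK KO and 7.75, 8.92 and 8.36 in GMP KO. It was far apart in KO, by at least 3.26 (KO step -3.26, SE 0.23, adjusted p = 3.15e-06), with a WT step of -0.33 (difference -2.94, SE 0.33, adjusted p = 0.000625). Il7r, a chain of the receptor for IL-7, read 6.39, 8.22 and 7.44 in LSK KO and 8.99, 8.60 and 9.65 in GMP KO. The groups did not overlap, the KO step was -1.72 (SE 0.43, adjusted p = 0.0151, and up to 0.0585 without LSK KO replicate 1 or GMP KO replicate 3), and the difference was -2.75 (adjusted p = 0.0148). Rgs1, a brake on chemokine receptors, had 0.35 in KO (adjusted p = 0.376) and 3.18 in WT (difference -2.83, adjusted p = 0.00148). Met, the receptor for hepatocyte growth factor, had -0.84 in KO (SE 0.14, adjusted p = 0.00137) and -3.02 in WT (difference 2.18, SE 0.20, adjusted p = 0.000182). Itga1, an integrin chain that binds collagen, read from 4.43 to 5.45 in the KO arrays, the range of a deleted gene or below, against a mean of 7.78 in WT GMP (difference 2.30, SE 0.23, adjusted p = 0.000318).

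The largest KO steps also included the following 12 genes, of which Myct1 is on the stem and multipotent progenitor list and Clec12a on the primary granule list. Higher in KO LSK were the protease inhibitor Ctla2a by 3.01 (SE 0.21) and its relative Ctla2b by at least 2.88 (SE 0.31), the small GTPase Gem by at least 2.97 (SE 0.19), Myct1 by 2.78 (SE 0.29), Gm5111 by at least 2.77 (SE 0.21), the urea transporter Slc14a1 by 2.63 (SE 0.18) and Stxbp4 by at least 2.62 (SE 0.17). Their WT steps were 3.32, 2.71, 2.18, 2.90, 3.40, 1.65 and 3.16, and the difference was called for Slc14a1 alone (0.98, adjusted p = 0.0332). The Slc14a1 call was lost without replicate 1 or 3 of LSK KO, GMP KO replicate 3 or any LSK WT array. It was also lost without replicate 2 or 3 of GMP WT (adjusted p of up to 0.0961) and after repeated quantile normalisation (0.0526). Higher in KO GMP were Rnase12 of the ribonuclease family (KO step -2.46, SE 0.52, a lower bound in size), Far2, a fatty acyl reductase (-2.45, SE 0.28), the C-type lectins of myeloid cells Clec12a (-2.41, SE 0.17) and Clec5a (-2.36, SE 0.27, a lower bound in size), and the annexin Anxa3 (-2.33, SE 0.18). All 12 were picked among genes whose KO arrays did not overlap, which held for 31.5% of genes tested. With the 6 KO arrays alone Rnase12 was not called. The difference was called for Clec5a (1.49, adjusted p = 0.0302) and Anxa3 (1.22, adjusted p = 0.0115). The Clec5a difference was lost without LSK KO replicate 2, replicate 2 or 3 of LSK WT or any GMP WT array (adjusted p of up to 0.0789). Of the sex-linked genes, Xist had means below 5.77 in all 4 groups, and the Y-linked Eif2s3y, Kdm5d and Uty had KO steps of -0.07, 0.38 and 0.02, none of them called.

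**Figure D5:**
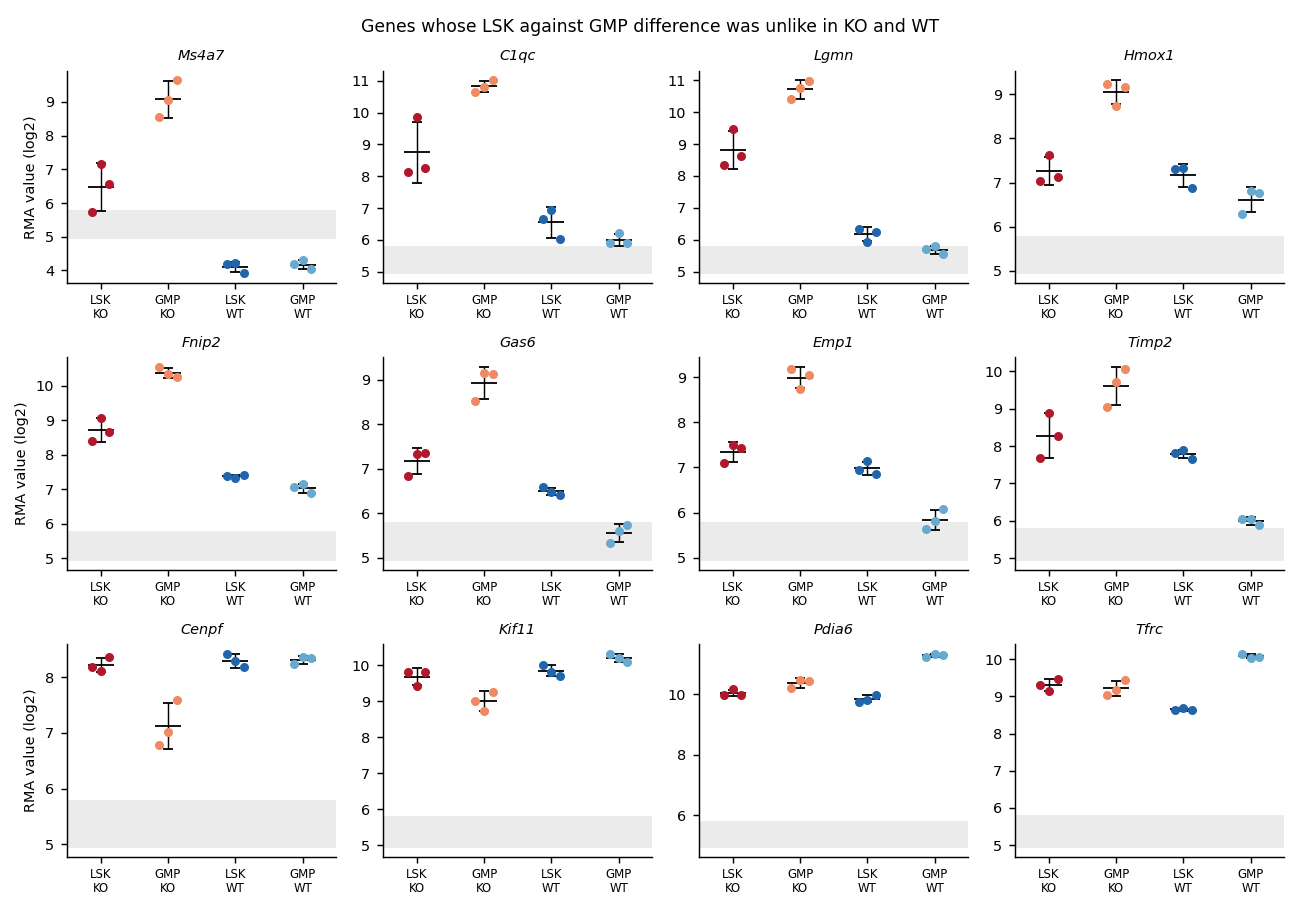
RMA values (log2) of 12 genes in the 12 arrays, drawn as in the plot of progenitor genes, with the grey band from 4.95 to 5.77. Ms4a7, C1qc, Lgmn, Hmox1 and Fnip2 part GMP from LSK in KO, Gas6, Emp1 and Timp2 run in opposite directions in KO and WT, and Cenpf, Kif11, Pdia6 and Tfrc are lower in GMP KO than in GMP WT.

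The array also holds probe sets for 300 miRNA genes, which read the hairpin or its host transcript and not the mature miRNA. In KO 5 were called higher in LSK and 28 in GMP, and 15 of the 28 were at or below 5.77 in all groups. Without GMP KO replicate 1, 22 of the 33 were still called. Of all 7126 genes with 4 group means at or below 5.77, 56 were called higher in LSK and 256 in GMP. The mature sequences of 4 of the 5 higher in LSK are shown, chosen after their values were seen, with the seed (bases 2 to 8) in capitals, from RefSeq's GRCm38.p6 annotation. The first 3 come from 1 cluster of miRNA genes, and the fourth lies in a Hox cluster.
miR-17-5p: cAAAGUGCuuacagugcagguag
miR-18a-5p: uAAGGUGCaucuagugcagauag
miR-20a-5p: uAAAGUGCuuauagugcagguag
miR-196b-5p: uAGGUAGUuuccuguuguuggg
The first and the third share the seed AAAGUGC. Mir196b read 6.76, 6.77 and 7.01 in LSK KO and 5.76, 6.10 and 6.28 in GMP KO. There was no overlap, with a KO step of 0.80 (adjusted p = 0.00485), or 0.65 (adjusted p = 0.0127) without GMP KO replicate 1, and a WT step of 1.10. Mir17, Mir18 and Mir20a had KO steps of 0.97 (adjusted p = 0.0375), 1.14 (adjusted p = 0.035) and at least 0.73 (adjusted p = 0.0416). All 3 calls were lost without GMP KO replicate 1, at 0.56 (adjusted p = 0.086), 0.66 (adjusted p = 0.0787) and 0.50 (adjusted p = 0.136).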

How the data were processed

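RNA of LSK and GMP cells from Lamtor2 KO and WT mice was measured on 12 mouse gene arrays, 3 a group. The authors deposited 1 log2 value per probe set and array, made with RMA per the submitters' processing notes. The log2 scale was read from the values (array medians 5.96 to 6.18), and the software version is not given in the sources used here. Of 34760 probe sets, 11799 were not listed in the annotation and 1321 had several symbols. The other 21640 gave 19937 genes, 21553 probe sets being named through gene IDs in RefSeq's GRCm38.p6 table and 87 by the annotation's symbol. For 954 genes with several probe sets the one with the highest mean was used.

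The deposited values were fitted with limma 3.58.1 (R 4.3.3) in 1 model of 4 groups over 12 arrays with 8 residual and 5.16 prior degrees of freedom. Tests were two-sided, and p-values were adjusted by Benjamini and Hochberg's method over 19937 genes, with a threshold of 0.05. No other scaling was applied, and the number of arrays limits the precision. The scripts were tested on simulated data. Tables and figures were made with Python 3.11.15, numpy 2.4.6, pandas 2.3.3 and matplotlib 3.10.9.

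Of 41 gene lists, 877 of 941 distinct genes were measured. The comparison, the lists and the rules were chosen with earlier results of these data known, and lists are described by counts and medians. Genes to name were picked from Lamtor2 and the gate genes, the 15 largest KO steps in each direction without overlap, the 12 largest differences in each direction, up to 5 members a list by the KO step and 3 by the difference, all members of lists of up to 8 entries and of the myeloid transcription factors, and 10 genes with opposite steps, and not every list member so picked is described. Exceptions are marked as chosen after their values were seen. Alternatives were other scalings, a filter leaving out the 30% dimmest genes, other uses of probe sets, other variance models, array weights, a 2-fold minimum, a replicate block, a fit of the 6 compared arrays alone and leaving out each array.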

Additional observations from a re-analysis of the deposited data

Results flagged for a closer look

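For 29 genes the step from LSK to GMP differed between KO and WT in limma's test of the difference itself (adjusted p below 0.05), and they were the largest such differences or were called in opposite directions. The difference (KO step minus WT step, log2) was positive for Ifi209 (3.19), Ccr9 (2.81), F13a1 (2.77), Ccr2 (2.56), Hdc (2.32), Itga1 (2.30), Ly6a2 (2.26), Nucb2 (2.25), Met (2.18), Hp (2.10), Igkv4-91 (2.10), Ly86 (2.09), Rnmt (1.17) and Sla (1.14). It was negative for Wfdc17 (-4.50), Timp2 (-3.11), Myof (-2.97), Ms4a4a (-2.94), Rgl1 (-2.89), Hacd4 (-2.85), Rgs1 (-2.83), Emp1 (-2.79), Fstl1 (-2.77), Il7r (-2.75), Gas6 (-2.68), C1qc (-2.63), Selenop (-1.81), Ptms (-1.63) and Gpr157 (-1.36). Haptoglobin, Hp, had a KO step of -1.97 and a WT step of -4.07, and its difference had an adjusted p of 0.0347 and of up to 0.0835 without any single LSK KO array, LSK WT replicate 2 or any single GMP WT array. Igkv4-91, an antibody light chain segment, read 6.32, 5.71 and 4.96 in LSK KO and 3.67 to 3.89 in GMP KO, and its adjusted p was 0.0619 without LSK WT replicate 2. Fstl1, a secreted glycoprotein, had steps of -1.47 in KO and 1.31 in WT, and Myof, a membrane repair protein, -1.03 and 1.93. Nucb2, a calcium-binding protein, had -1.03 and -3.27.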

How the results depend on the processing

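The 3160 genes called in KO became 1327 with the 6 KO arrays alone and 497 with a 2-fold minimum, and 1667 to 4044 with 1 array left out. Of these the 2006 higher in LSK became 831, 259 and 1033 to 2457, and the 1154 higher in GMP became 496, 238 and 634 to 1587. The 3905 calls in WT became 846 with a 2-fold minimum, but 5400 with the 6 WT arrays alone and 5684 with array weights. With array weights the KO calls were 2843. The 1591 differences became 371 with a 2-fold minimum and 800 to 2006 with 1 array left out. The 1064 positive ones became 586 after repeated quantile normalisation, 182 with the minimum and 494 to 1368, and the 527 negative ones 189 with the minimum and 306 to 726. Lowest counts came without LSK KO replicate 3 in KO and without GMP WT replicate 2 for the differences. Under the other alternatives these counts were within 1.5 times. With arrays centred on their median the WT balance turned, from 2047 higher in LSK and 1858 in GMP to 1563 and 2989.

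Same-numbered LSK and GMP arrays correlated in their deviations from the group means at 0.00, -0.18 and 0.15 in KO and 0.18, -0.03 and 0.08 in WT. Arrays of different numbers gave -0.24 to 0.22 in KO and -0.16 to 0.06 in WT. With so few arrays these values cannot show whether the numbers mark pairs. Pairing is not stated, so the main fit took none. With a replicate block 2803 genes were called in KO, 3616 in WT and 1303 for the difference.

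Among the genes picked for naming the KO call was lost for 43 with the 6 KO arrays alone, for 26 without LSK KO replicate 3 and for 5 with the replicate block. The call of the difference was lost for 18 without GMP WT replicate 2 and for 9 with the block. Values in the range of the deleted Lamtor2 limit what can be read at low signal, and 3 arrays a group limit the precision.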
